A study of Mus musculus with 78 samples.

Results

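Flank tissue from virus-injected mice given DC101, an antibody to the VEGF receptor VEGFR2, was compared at day 5 with flank tissue labelled control at day 0. The comparison rests on 16 of the 78 arrays of the series, 8 in each group, chosen by their source labels alone, and covers all 14718 genes tested. All animals were female athymic nude mice (Foxn1nu), which lack a thymus, aged 4 to 6 weeks. In the DC101 group the flank skin had been injected intradermally with 50 µl holding 5e+08 plaque-forming units of Ad-VEGF-A164, an adenovirus that makes infected cells produce the VEGF-A isoform VEGF-A164. The ears of the virus-injected mice received the same virus. DC101, a rat antibody to mouse VEGFR2, was given into the peritoneum at 20 mg per kg. The control flanks carry no virus or antibody in their labels, which do not say whether they were injected with anything, and no group received an empty vector. Another 8 arrays, from virus-injected flank without antibody at day 5 (untreated below), show which of the early differences from control were present without the antibody. Which animal each array came from is not given, nor whether days run from the start of treatment or to harvest. The design speaks of at least 5 animals per group, so 2 arrays could come from 1 animal, which would make p-values too small.

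VEGF-A is the main growth signal of new blood vessels. It binds VEGFR2 (gene Kdr) on endothelial cells, which transmits most of the signal for division, migration and leakiness, and VEGFR1 (Flt1), which binds it more tightly but signals weakly. Endothelial cells that receive the signal can become tip cells, which lead a sprout, secrete basement membrane and express the Notch ligand Dll4. DC101 occupies the outer part of VEGFR2 and keeps ligand from it, while leaving VEGFR1 and VEGFR3 (Flt4) unblocked. The skin over the flank also holds keratinocytes, hair follicles, dermal fibroblasts, a thin muscle layer, fat and, in females, mammary gland.

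Levels are log2(signal + 16), differences are in log2, and the error given with a difference is the standard error (SE) of a limma fit over all 10 groups of the series. Adjusted p-values are from limma with Benjamini-Hochberg adjustment over all genes tested, a gene is called higher or lower at an adjusted p under 0.05, and n is 8 arrays per group throughout. Skin markers were present in both groups: Krt5 spanned 12.72 to 14.53 in control and 13.88 to 15.39 in DC101 tissue, and Col3a1 15.92 to 16.32 and 15.88 to 16.61. The median 3' to 5' ratio of the Actb probe sets, a sign of RNA quality, was 1.31 in control, 1.29 in DC101 and 1.62 in untreated tissue, and that of Gapdh was 0.796, 0.847 and 1.03. DC101 arrays 21 and 22 stood apart with Actb ratios of 1.65 and 1.66, arrays 19 and 20 with low hair follicle levels, and the last control array by running number with a respiratory chain level of 15.63. In bulk tissue, more cells of a type and more RNA per cell cannot be told apart.

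Limma called 6753 of the 14718 genes in DC101 against control tissue. Of all genes tested 23.3% were higher (3431 genes) and 22.6% lower (3322), and 1830 of the calls were at least 2-fold, 1041 of them higher and 789 lower. The median difference over all genes was 0.00. The same test called 27.9% of genes higher and 24.9% lower in untreated against control tissue. Both comparisons use the same control arrays, so their values are set side by side and the difference between them was tested as DC101 against untreated. That test called 4.66% of genes higher (686) and 7.11% lower (1046) with DC101. The 686 became 457 without DC101 array 19, 419 without array 20 and 252 without both, and 1126 without arrays 21 and 22.

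**Figure D1:**
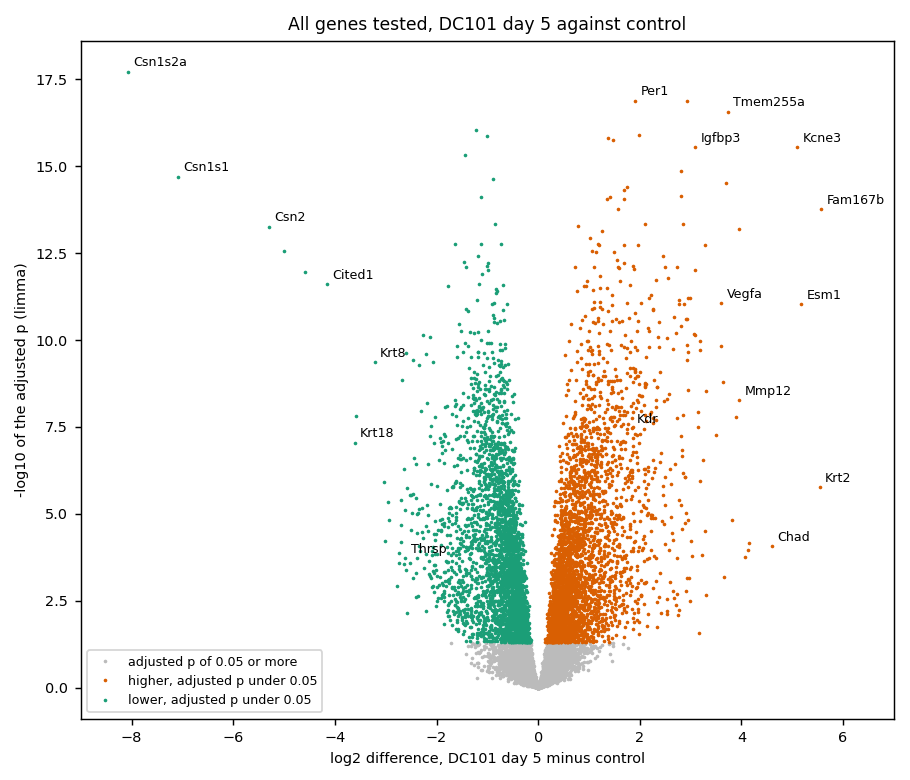
Each point is 1 of 14718 genes. The x axis is the log2 difference of DC101 day 5 minus control tissue and the y axis the -log10 of limma's adjusted p, with genes past the threshold of 0.05 coloured by direction. Csn1s2a, Csn1s1 and Csn2 lie farthest to the left, and Fam167b, Krt2, Esm1 and Kcne3 farthest to the right.

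The largest rises with DC101 present were in genes of several tissues. Fam167b, a gene of little known function, lay at 4.77 to 6.25 (median 5.45) in control and 10.42 to 11.70 (median 10.92) in DC101 tissue. No array of one group reached the other, and the difference was 5.57 (SE 0.50, adjusted p = 1.7e-14), or at least 6.19-fold, a lower bound because every control array was below the filter level of 8.44. Its untreated arrays spanned 11.30 to 12.01, and DC101 differed from them by -0.59 (adjusted p = 0.48). Tmem255a, a membrane protein gene, was at least 8.78-fold higher than control (3.74, SE 0.28, adjusted p = 2.7e-17) but lower than in untreated tissue (-0.90, adjusted p = 0.026). Others were the macrophage elastase Mmp12 (at least 2.97-fold, adjusted p = 5.3e-09), the lymphocyte surface receptor Ly9 (at least 2.12-fold, adjusted p = 6.4e-14), the granzyme Gzmc (at least 2.72-fold, adjusted p = 1.6e-08) and the neutrophil-attracting chemokine Cxcl5 (at least 2.32-fold, adjusted p = 1.5e-05). For those 4 genes the difference between DC101 and untreated tissue missed the threshold (adjusted p from 0.38 to 0.94).

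Vegfa, the gene the virus carries, remained far above control with DC101. Its brightest probe set read 9.49 to 10.91 (median 10.18) in control, 13.51 to 14.87 (median 14.06) in untreated and 12.52 to 14.86 (median 13.96) in DC101 tissue. All 8 DC101 arrays were above every control array and 5 lay within the untreated range. The gene rose by 3.61 against control (SE 0.39, adjusted p = 8.9e-12), and DC101 differed from untreated tissue by -0.38 (SE 0.39, adjusted p = 0.58). A second Vegfa probe set moved the other way, from a median of 11.89 in control to 10.07 in DC101 tissue, a difference of -1.75 (SE 0.18, adjusted p = 1.2e-12). Untreated tissue read a median of 9.75 there, and which transcript each probe set detects, viral or the mouse's own, was not tested.

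Of the other ligands, Pgf (placental growth factor, a VEGFR1 ligand) and Vegfc (a VEGFR3 ligand) rose and Vegfb (a VEGFR1 ligand) fell. Pgf read 5.98 to 9.33 (median 7.53) in control, 8.12 to 10.13 (median 8.92) in DC101 and 10.27 to 10.66 (median 10.53) in untreated tissue. Only 1 DC101 array exceeded every control array, and all 8 were below every untreated array. It rose by 1.45 against control (SE 0.44, adjusted p = 0.0048) and was below untreated tissue (-1.60, SE 0.44, adjusted p = 0.0097). Vegfc rose by 0.83 (adjusted p = 0.0095) and Vegfb fell by 1.61 (adjusted p = 1.2e-05), all DC101 arrays lying under all control arrays for the second. Another Vegfc probe set also rose (1.05, adjusted p = 0.037), and a further one missed the threshold (0.59, adjusted p = 0.066). Vegfd, the other VEGFR3 ligand, differed from control by 0.42 (adjusted p = 0.13) and stood above untreated tissue by 0.66 (adjusted p = 0.047).

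All 5 receptor and co-receptor genes rose, against 23.3% of all genes, with a median difference of 1.84 (untreated against control 2.49). Kdr, the target of the antibody, read 10.06 to 11.11 (median 10.83) in control, 12.002 to 12.95 (median 12.74) in DC101 and 12.64 to 13.84 (median 13.34) in untreated tissue. Every DC101 array exceeded every control array, and 3 fell under the lowest untreated array. The rise was 1.84 (SE 0.26, adjusted p = 3.4e-08), and the difference from untreated tissue was -0.66 (SE 0.26, adjusted p = 0.089), short of the threshold. Flt1 read 9.40 to 10.57 (median 10.38), 11.41 to 12.58 (median 12.01) and 12.84 to 13.69 (median 13.30) in the same order. On its brightest probe set the 3 groups did not overlap. DC101 tissue held an intermediate level there, 1.94 above control (SE 0.30, adjusted p = 2.3e-07) and below untreated tissue (-1.22, SE 0.30, adjusted p = 0.0039). The other Flt1 probe sets also rose against control. Against untreated tissue they read -0.44 (adjusted p = 0.34), -1.10 (adjusted p = 0.014) and -1.03 (adjusted p = 0.0036). On the first and last of these, DC101 and untreated arrays overlapped. Flt4, which marks lymphatic and sprouting endothelium, rose by 2.58 (SE 0.34, adjusted p = 3.5e-09), but its other probe set missed the threshold (0.75, adjusted p = 0.065). The neuropilin co-receptors Nrp1 and Nrp2 rose by 1.15 (adjusted p = 1.4e-05) and 0.66 (adjusted p = 0.012). The Nrp2 call depended on the probe set and on the arrays used. Its other probe sets read 0.44 (adjusted p = 0.012), 0.79 (adjusted p = 0.00038) and -0.19 (adjusted p = 0.63), and their mean with the brightest missed the threshold (0.43, adjusted p = 0.063). Of 24 fits that each left out 1 array, 1 lost the call, that without the last control array (adjusted p = 0.05). It was also lost without DC101 arrays 21 and 22 (0.49, adjusted p = 0.092).

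The angiopoietins, which act through the receptor Tek (Tie2) on vessel stability, moved in opposite directions. Angpt2, the destabilising ligand made by sprouting endothelium, read 9.06 to 9.94 (median 9.38) in control, 10.47 to 11.25 (median 10.95) in DC101 and 11.43 to 12.06 (median 11.92) in untreated tissue, with no overlap between the 3 groups. It rose by 1.45 (SE 0.28, adjusted p = 2.2e-05) and stood below untreated tissue (-0.94, adjusted p = 0.02). Angpt1, the stabilising ligand made by mural cells, fell by 0.51 against control (adjusted p = 0.0038) and was above untreated tissue by 0.57 (adjusted p = 0.0074). The orphan receptor Tie1 rose by 2.73 (SE 0.38, adjusted p = 1.7e-08), whereas Tek differed by -0.13 (SE 0.23, adjusted p = 0.69), a sign that turned to 0.18 without DC101 arrays 21 and 22. Apln, a peptide of tip cells, rose by 1.23 (adjusted p = 4.5e-07) and was lower than in untreated tissue (-0.61, adjusted p = 0.031). Its receptor Aplnr read 11.54 to 12.93 (median 12.61) in control, 15.01 to 15.36 (median 15.30) in DC101 and 14.94 to 15.22 (median 15.13) in untreated tissue, a rise of 2.77 (SE 0.29, adjusted p = 7.1e-12) with 0.10 between the virus-injected groups (adjusted p = 0.86). Angptl4, a lipase inhibitor, rose by 0.67 (adjusted p = 0.041), but the call was lost in 9 of 24 fits that each left out 1 array, with an adjusted p of up to 0.18 (0.46, without the last control array). These were the fits without control arrays 96, 98, 100 or the last, or DC101 arrays 17 to 20 or 24. It was also lost with adjacent arrays averaged (adjusted p = 0.058) and with the RNA ratios as covariates (adjusted p = 0.083). A dimmer Angptl4 probe set rose by 2.73 against control (SE 0.38, adjusted p = 2.2e-08). It read 4.60 to 7.25 in control, 6.88 to 7.78 in untreated and 8.04 to 9.68 in DC101 tissue. All its control and untreated arrays were below the filter level, so its sizes are uncertain. On it DC101 stood above untreated tissue by 1.52 (adjusted p = 0.0046). The brighter probe set differed there by -0.25 (adjusted p = 0.61).

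Most endothelial identity genes rose. Of 32 pan-endothelial genes tested 28 were higher and none lower than control, where 23.3% of all genes were higher, with a median difference of 1.57 (untreated 2.17). The mean level of the list was 10.15 to 10.89 across control, 11.97 to 12.67 across DC101 and 12.41 to 12.86 across untreated arrays. Cd93, a C-type lectin of growing vessels, read 10.71 to 11.67 (median 11.45) in control and 13.72 to 15.11 (median 14.48) in DC101 tissue, a rise of 3.08 (SE 0.31, adjusted p = 9.5e-13). Mcam (CD146, an adhesion molecule of endothelium and pericytes) rose by 2.99 (SE 0.32, adjusted p = 6e-12). The junction cadherin Cdh5 rose by 2.53 (adjusted p = 8.7e-11), the guidance receptor Robo4 by 2.46 (adjusted p = 3.8e-13), and the fenestral diaphragm gene Plvap by 2.11 (adjusted p = 1.8e-09). The members that missed the threshold were Cd34 (0.18), Sox17 (0.58), Tek and Vwf (-0.63), the last encoding a clotting factor carrier stored in resting endothelium. Against untreated tissue 8 of the 32 were lower, where 7.11% of all genes were, and 1 higher. The 8 included the transcription factors Sox17 (-1.17, adjusted p = 0.003), Sox18 (-1.23, adjusted p = 0.0019), Sox7 (-0.79, adjusted p = 0.016) and Tal1 (-1.06, adjusted p = 0.006), and the higher one was Vwf (0.86, adjusted p = 0.047).

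Tip-cell and VEGF-induced genes gave some of the widest gaps. Of 28 tested, 24 were higher than control and 1 lower, beside 23.3% of all genes higher, with a median of 1.47 (untreated 2.29). Esm1, an endothelial proteoglycan of tip cells, read 6.87 to 9.37 (median 8.26) in control, 12.59 to 14.09 (median 13.34) in DC101 and 13.80 to 14.46 (median 14.20) in untreated tissue. Control and DC101 arrays were separated by more than the whole range of either group, and the rise was 5.17 (SE 0.56, adjusted p = 9.2e-12). Kcne3, a potassium channel subunit, read 6.18 to 8.04 (median 7.31) in control and 11.76 to 12.90 (median 12.42) in DC101 tissue, at least 15.4-fold higher (5.10, SE 0.41, adjusted p = 2.9e-16). Neither gene passed against untreated tissue (-0.80, adjusted p = 0.37, and -1.03, adjusted p = 0.088). Rcan1, an inhibitor of calcineurin and the single member lower than control, fell by 0.44 (adjusted p = 0.0015). Of the 28 genes 12 were lower with DC101 than in untreated tissue, beside 7.11% of all genes, and 1 was higher, the vessel peptide Adm (0.81, adjusted p = 0.017). Among the 12 were the chemokine receptor Cxcr4 (-1.58, adjusted p = 7.5e-05), the transcription factor Sox11 (-1.62, adjusted p = 1.6e-05) and the pericyte-recruiting growth factor Pdgfb (-1.10, adjusted p = 3e-04). Each of these also stood above control, Cxcr4 by 1.996, Sox11 by 2.73 and Pdgfb by 0.98.

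**Figure D2:**
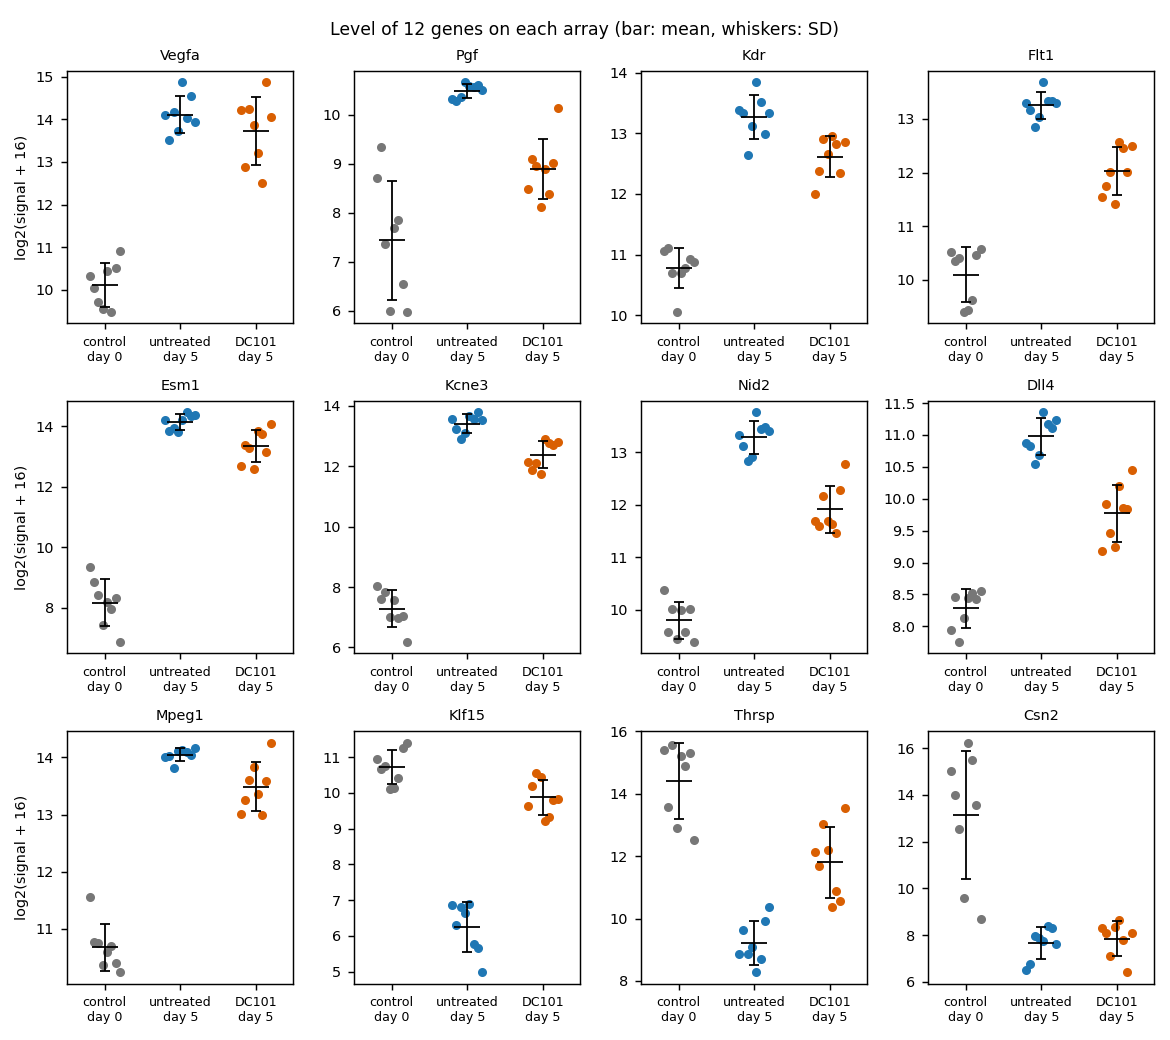
Level of 12 genes, log2(signal + 16) on the y axis of each panel, on the 8 control, 8 untreated and 8 DC101 arrays; points are arrays, the bar is the mean and the whiskers the SD. Flt1, Dll4 and Nid2 show 3 separate bands with DC101 in the middle, Vegfa and Mpeg1 overlap between the virus-injected groups, and Klf15 is low in untreated tissue alone.

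Notch signalling shapes arteries and limits the number of tip cells. Of 19 Notch and arterial genes 10 were higher than control, beside 23.3% of all genes, and none lower (median 0.58, untreated 1.13). The receptor Notch4 read 9.05 to 10.16 (median 9.92) in control and 12.33 to 13.72 (median 12.99) in DC101 tissue and rose by 3.18 (SE 0.37, adjusted p = 1.1e-10). The arterial gap junction gene Gja4 rose by 2.48 (SE 0.33, adjusted p = 5.7e-09). Dll4, the tip-cell ligand, read 7.75 to 8.56 (median 8.44) in control, 9.18 to 10.45 (median 9.85) in DC101 and 10.54 to 11.35 (median 10.995) in untreated tissue. On this probe set the 3 groups were separate: Dll4 was 1.49 above control (SE 0.21, adjusted p = 1.6e-08) and below untreated tissue (-1.21, SE 0.21, adjusted p = 2.3e-05). Another Dll4 probe set also rose against control (2.65, adjusted p = 1.1e-05) but missed the threshold against untreated tissue (-1.16, adjusted p = 0.12). There DC101 arrays reached 10.82 and untreated arrays began at 10.58. Of the 19 genes 5 were lower than in untreated tissue (7.11% of all genes were), among them the Notch target Heyl (-1.06, adjusted p = 0.00017) and the ligand Jag1 (-1.04, adjusted p = 0.0035). Jag1 itself differed from control by 0.09 (adjusted p = 0.81).

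Of 15 vein and lymphatic genes 6 were higher and 2 lower than control, beside 23.3% and 22.6% of all genes (median 0.39). Stab1, a scavenger receptor of sinusoidal endothelium that macrophages also express, rose by 2.10 (SE 0.19, adjusted p = 4.7e-14), and the lymphatic gene Mmrn1 by 1.64 (SE 0.49, adjusted p = 0.0041). The lower members were Ackr1, a chemokine receptor of venules (-0.81, adjusted p = 0.00011), and the venous transcription factor Nr2f2 (-0.56, adjusted p = 0.012). Of the leukocyte adhesion molecules 3 of 6 rose, beside 23.3% of all genes higher: Icam2 by 2.41 (adjusted p = 1.8e-07), Icam1 by 1.36 (adjusted p = 4.2e-08) and Vcam1 by 1.13 (adjusted p = 0.0019). The selectins Sele (-0.54, adjusted p = 0.064) and Selp (-0.18, adjusted p = 0.45) did not pass.

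Mural cells, which wrap vessels, gave 11 higher and 2 lower of 22 genes, beside 23.3% and 22.6% of all genes (median 0.65). Ndufa4l2, a mitochondrial protein of pericytes, rose by 2.17 (SE 0.41, adjusted p = 9.5e-06), the receptor Pdgfrb by 1.32 (adjusted p = 7.2e-05) and the proteoglycan Cspg4 (NG2) by 0.97 (adjusted p = 7e-06). The smooth muscle gene Lmod1 fell by 1.37 (SE 0.45, adjusted p = 0.0088). Cspg4, Pdgfb, Kcnj8, Notch3 and Mcam were lower than in untreated tissue, Cspg4 most clearly (-1.08, adjusted p = 1.3e-05).

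Matrix genes that surround new vessels rose as well. In the basement membrane list 12 of 17 genes were higher and none lower than control (23.3% of all genes were higher; median 0.84, untreated 1.38). Col18a1 rose by 2.16 (SE 0.24, adjusted p = 4.5e-11) and Col4a2 by 2.05 (SE 0.27, adjusted p = 4.2e-09), both chains of vessel basement membrane collagens. Nid2, which links laminin to collagen IV, read 9.39 to 10.37 (median 9.78) in control, 11.45 to 12.77 (median 11.68) in DC101 and 12.82 to 13.76 (median 13.37) in untreated tissue. Its 3 groups did not overlap: it rose by 2.11 against control (SE 0.27, adjusted p = 2.1e-09) and was below untreated tissue (-1.37, SE 0.27, adjusted p = 0.00025). In all, 6 of the 17 were lower than in untreated tissue, beside 7.11% of all genes.

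Wound matrix genes were higher in 16 of 21, beside 23.3% of all genes, and lower in 1, the hyaluronan synthase Has2 (-0.74, adjusted p = 0.038), with a median of 1.44 (untreated 1.47). Tenascin-C (Tnc), a glycoprotein of healing tissue, read 10.17 to 11.60 (median 11.08) in control and 12.77 to 14.46 (median 13.52) in DC101 tissue, a rise of 2.68 (SE 0.30, adjusted p = 2.2e-11). Fibrillin-2 (Fbn2) rose by 2.40 (SE 0.30, adjusted p = 8.1e-10) and Col12a1 by 2.31 (SE 0.31, adjusted p = 8.5e-09). Tnc and Col12a1 were below untreated tissue (-1.08, adjusted p = 0.0099, and -0.97, adjusted p = 0.031), as was the protease inhibitor Timp1 (-1.44, adjusted p = 0.00035), while Fbn2 differed by -0.14 (adjusted p = 0.82).

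Of 20 genes of fibrillar collagen and resting dermis 7 were higher and 2 lower than control, beside 23.3% and 22.6% of all genes (median 0.29). Fmod, a collagen-binding proteoglycan, rose by 2.73 (SE 0.62, adjusted p = 0.00019) and Col1a1 by 1.43 (SE 0.24, adjusted p = 1.5e-06), and Pi16, a marker of resting adventitial fibroblasts, fell by 1.31 (SE 0.40, adjusted p = 0.0051). Pi16 read 11.43 to 14.42 (median 13.41) with DC101 against 10.37 to 13.55 (median 11.63) in untreated tissue, a difference of 1.63 (adjusted p = 0.0036). Without DC101 arrays 21 and 22 the higher count was 11 and Pi16 no longer passed against control (-0.91, adjusted p = 0.07).

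Proteases and clotting genes followed. Of 21 matrix proteases 12 were higher, beside 23.3% of all genes, and none lower (median 0.74), including the lysosomal protease Ctss (1.89, SE 0.19, adjusted p = 9.2e-13) and the collagenase Mmp13, which was at least 2.02-fold higher. Mmp13 read 4.80 to 7.11 (median 6.33) in control, 8.40 to 10.27 (median 9.35) in DC101 and 10.78 to 11.56 (median 11.23) in untreated tissue. Its groups did not overlap, and DC101 tissue was below untreated (-1.70, SE 0.51, adjusted p = 0.019). Of 14 coagulation genes 7 were higher and 1 lower, beside 23.3% and 22.6% of all genes (median 0.49), among them the clotting factors F7 (1.76, adjusted p = 8.9e-10) and F10 (at least 1.06-fold, adjusted p = 9e-07) and the urokinase receptor Plaur (1.59, SE 0.18, adjusted p = 3e-11). Plaur was lower than in untreated tissue (-0.76, adjusted p = 0.0022).

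Proliferation genes were higher than control in 27 of 31 and lower in none, beside 23.3% of all genes (median 1.13, untreated 1.48). Control arrays spread widely, with list levels of 8.76 to 11.17, and overlapped the DC101 ones at 10.63 to 11.35. Bub1, a checkpoint kinase of the mitotic spindle, read 4.80 to 10.37 (median 8.96) in control and 9.64 to 10.73 (median 10.27) in DC101 tissue, a rise of 1.73 (SE 0.41, adjusted p = 0.00037). Its partner Bub1b rose by 1.71 (SE 0.38, adjusted p = 0.00018) and the centromere histone Cenpa by 1.71 (SE 0.26, adjusted p = 1.4e-07). The Cenpa call depended on the probe set, since neither of its other probe sets passed (0.18, adjusted p = 0.44, and 0.58, adjusted p = 0.5). Against untreated tissue 6 of the 31 were lower, beside 7.11% of all genes, including the cyclin Ccne2 (-0.86, adjusted p = 3e-05) and the mitotic kinase Plk1 (-0.72, adjusted p = 0.018).

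The promoters of 2 of these genes are shown because cell cycle genes moved together and many promoters of this class carry the letters CCAAT, read by the factor NF-Y. The windows hold the 250 bases before the gene's start, from RefSeq (GRCm38.p6), 5′ to 3′ on the gene's strand, with CCAAT or its reverse complement ATTGG in capitals. Bub1 is on chr2:127831860-127832109, minus strand, and Cenpa on chr5:30666636-30666885, plus strand.
Bub1: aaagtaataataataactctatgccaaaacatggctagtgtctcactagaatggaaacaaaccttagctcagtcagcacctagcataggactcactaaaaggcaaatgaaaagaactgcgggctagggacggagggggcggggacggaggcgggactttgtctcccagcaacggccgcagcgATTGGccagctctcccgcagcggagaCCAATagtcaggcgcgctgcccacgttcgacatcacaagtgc
Cenpa: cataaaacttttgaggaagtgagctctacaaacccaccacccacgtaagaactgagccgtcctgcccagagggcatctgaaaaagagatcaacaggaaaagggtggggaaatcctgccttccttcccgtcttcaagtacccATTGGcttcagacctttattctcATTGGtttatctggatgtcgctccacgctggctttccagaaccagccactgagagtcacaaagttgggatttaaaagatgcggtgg
CCAAT on either strand stood in 20 of the 26 list members with a promoter entry (76.9%) and in 39.5% of the 11790 tested genes with one, and in 17 of the 23 such members that rose. The cell cycle homology region, searched as TTTGAA on both strands, stood in 7 of the 26 (26.9%) and in 13.5% of tested genes. A match is a description of these letters only.

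Leukocyte genes rose in the same tissue. Of 28 macrophage and monocyte genes 25 were higher than control and none lower (23.3% of all genes were higher; median 1.65, untreated 1.70). Mpeg1, a pore-forming protein of phagocytes, read 10.24 to 11.55 (median 10.65) in control and 12.999 to 14.26 (median 13.47) in DC101 tissue, without overlap, and rose by 2.82 (SE 0.24, adjusted p = 1.4e-15). The lipid receptor Trem2 was at least 3.11-fold higher (adjusted p = 1.5e-10) and the actin-binding protein Aif1 rose by 2.72 (SE 0.31, adjusted p = 6.1e-11). Between DC101 and untreated tissue the list's median difference was -0.05, with 1 member higher, the haemoglobin scavenger receptor Cd163 (0.94, adjusted p = 0.022), and 1 lower, the scavenger receptor Msr1 (-1.24, adjusted p = 0.00087). In that test 4.66% of all genes were higher and 7.11% lower. Complement genes were higher in 7 of 12 and lower in none (23.3% of all genes were higher), with C1qb up by 1.67 (adjusted p = 1.9e-06), C1qc by 1.36 (adjusted p = 2.2e-05) and the anaphylatoxin receptor C3ar1 by 1.54 (adjusted p = 2.1e-08). Against untreated tissue 4 of the 12 were higher and 1 lower, beside 4.66% and 7.11% of all genes (median 0.36). The lower one was C3ar1 (-0.85, adjusted p = 0.0055), whose other probe sets read -0.97 (adjusted p = 0.00067) and -0.24 (adjusted p = 0.56).

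Neutrophil and acute inflammation genes were higher in 17 of 24 and lower in 1, beside 23.3% of all genes higher (median 1.01, untreated 1.05). The acute-phase protein Saa3 read 8.87 to 10.13 (median 9.23) in control and 12.02 to 13.89 (median 12.86) in DC101 tissue and rose by 3.64 (SE 0.46, adjusted p = 1.6e-09), and the monocyte chemokine Ccl2 rose by 3.08 (SE 0.35, adjusted p = 7.1e-11). Neither differed past the threshold from untreated tissue (0.30, adjusted p = 0.73, and -0.76, adjusted p = 0.15).

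Cytotoxic cell genes were higher in 8 of 14, beside 23.3% of all genes, and lower in none (median 0.74), led by Gzma (1.97, SE 0.43, adjusted p = 0.00012), Gzmb (1.82, SE 0.45, adjusted p = 0.00067) and the chemokine Ccl5 (1.53, SE 0.47, adjusted p = 0.0056). Under a filter at the 60th percentile the count of 8 was 4. The T cell genes Cd3g (0.29, adjusted p = 0.48) and Cd8a (0.25, adjusted p = 0.078) did not pass, and Cd4, which some macrophages also express, rose by 1.20 (adjusted p = 0.00097). MHC class II and dendritic cell genes were higher in 9 of 10 and lower in none (23.3% of all genes were higher), with a median of 1.73 (untreated 1.13). H2-DMb2, a peptide-loading subunit, rose by 2.25 (SE 0.35, adjusted p = 2.8e-07), and the presenting chains H2-Aa by 1.93 (adjusted p = 1.7e-07) and H2-Ab1 by 1.91 (adjusted p = 6.9e-10). H2-Ab1 read 11.44 to 12.67 (median 11.98) in control, 12.92 to 13.56 (median 13.22) in untreated and 13.41 to 14.44 (median 13.84) in DC101 tissue. All but 1 DC101 array lay above every untreated array, and the difference of 0.68 passed (adjusted p = 0.045), as did that of the loading subunit H2-DMa (0.67, adjusted p = 0.034).

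Interferon-stimulated genes were higher in 16 of 25 and lower in none, beside 23.3% of all genes (median 0.64, untreated 0.47). The T cell chemokines Cxcl9 and Cxcl10 rose by 2.999 (SE 0.63, adjusted p = 6e-05) and 2.24 (SE 0.37, adjusted p = 9.3e-07), and the antiviral enzyme Rsad2 by 1.74 (SE 0.29, adjusted p = 1.1e-06). Cxcl10 read 5.75 to 8.62 (median 8.28) in control and 9.33 to 11.71 (median 10.11) in DC101 tissue, without overlap. Against untreated tissue 2 of the 25 were higher, Gbp2 (0.84, adjusted p = 0.024) and Ifi27 (0.61, adjusted p = 0.033), and none lower. In that test 4.66% of all genes were higher and 7.11% lower.

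Genes of this class are known for the interferon-stimulated response element, read by STAT and IRF factors, and the promoters of Cxcl10 and Rsad2 are shown because both rose and carry its letters. The element was searched as GAAANNGAAA on both strands, and its matches are in capitals. The windows are the 250 bases before the start, from RefSeq (GRCm38.p6), 5′ to 3′ on the gene's strand: Cxcl10 on chr5:92348890-92349139, minus strand, and Rsad2 on chr12:26456453-26456702, minus strand.
Cxcl10: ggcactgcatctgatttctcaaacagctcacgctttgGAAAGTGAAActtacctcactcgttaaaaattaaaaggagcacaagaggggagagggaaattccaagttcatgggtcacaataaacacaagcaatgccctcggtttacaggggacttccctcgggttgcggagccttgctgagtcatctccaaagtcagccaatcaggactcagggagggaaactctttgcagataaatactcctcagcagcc
Rsad2: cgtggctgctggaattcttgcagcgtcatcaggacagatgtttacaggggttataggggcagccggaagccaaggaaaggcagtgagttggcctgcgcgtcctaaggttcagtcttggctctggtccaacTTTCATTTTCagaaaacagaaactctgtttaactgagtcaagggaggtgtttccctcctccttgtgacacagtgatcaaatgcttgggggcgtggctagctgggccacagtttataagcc
The match in Cxcl10 begins 213 bases before the start and that in Rsad2 120 bases before it, the latter on the opposite strand. The element stood in 12 of the 19 members with a promoter entry (63.2%), 7 of them among the 13 such members that rose, and in 3.25% of tested genes.

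Other blood cell lists had few calls, near or below the 23.3% of all genes higher and 22.6% lower, apart from the small erythroid list. Of 10 mast cell genes 2 were higher: the histidine decarboxylase Hdc was at least 2.96-fold higher (adjusted p = 2.8e-09) and the tryptase Tpsab1 rose by 1.18 (adjusted p = 7.6e-05). Hdc stood above untreated tissue (1.85, adjusted p = 0.00048) and Tpsab1 below it (-0.87, adjusted p = 0.014). Of 8 B and plasma cell genes 1 passed, the immunoglobulin joining chain Jchain, at least 2.15-fold lower (adjusted p = 0.00014). Of 5 erythroid genes the haem enzyme Alas2 rose by 1.71 (SE 0.61, adjusted p = 0.018), and the erythroid factor Klf1 and the transferrin receptor Tfrc fell by 0.66 (adjusted p = 0.034) and 0.48 (adjusted p = 0.011). The Alas2 call was lost with adjacent arrays averaged (adjusted p = 0.093). Tfrc missed the threshold without DC101 array 24 (-0.37, adjusted p = 0.055), with the mean of its probe sets (-0.32, adjusted p = 0.058) and by either of its other probe sets (-0.20, adjusted p = 0.43, and -0.28, adjusted p = 0.29). Klf1 missed it without any of DC101 arrays 22 to 24 or control arrays 95, 100 and the last 2 (adjusted p from 0.05 to 0.12).

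Epidermal genes rose in a way that varied between arrays. Of 23 epidermal genes 12 were higher and none lower than control (median 1.13, untreated 0.65), and of 19 activated keratinocyte genes 10 were higher and none lower, where 23.3% of all genes were higher (median 1.28). Krt2, a keratin of the upper epidermis, read 7.53 to 11.29 (median 8.04) in control, 12.20 to 15.99 (median 14.67) in DC101 and 11.47 to 13.85 (median 12.51) in untreated tissue. All DC101 arrays exceeded all control arrays, and the rise was 5.54 (SE 0.95, adjusted p = 1.7e-06), with 1.88 between DC101 and untreated tissue (adjusted p = 0.19). Krt10, the keratin of the layers above the basal one, rose by 3.28 (SE 0.66, adjusted p = 3.1e-05), and the barrier lipoxygenase Alox12b by 3.29 (SE 0.91, adjusted p = 0.0021). For Alox12b all 8 control and 4 DC101 arrays were below the filter level, so the size of its rise is uncertain. In the activated list the cysteine protease inhibitor Stfa3 rose by 4.15 (SE 0.88, adjusted p = 6.7e-05), the wound keratin Krt6b by 2.96 (SE 0.74, adjusted p = 0.00072), and the antimicrobial peptide Defb3 was at least 1.89-fold higher (adjusted p = 0.026), a call lost without DC101 array 17 (2.80, adjusted p = 0.06) or 23 (2.75, adjusted p = 0.065).

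Several of these levels alternated with the running number of the array. Within DC101 tissue Krt2 averaged 15.12 on odd and 13.79 on even arrays, odd being the higher in 4 of 4 neighbouring pairs, and over all 10 groups in 37 of 39 pairs. Chad, a cartilage and tendon matrix protein that was at least 3.58-fold higher than control (adjusted p = 8.4e-05), alternated in 34 of 39 pairs, and Mfap4, an elastic fibre protein (at least 3.58-fold, adjusted p = 0.00011), in 31. Vegfa was higher on the odd array in 30 of 39 pairs, Kdr in 25 and Esm1 in 22. Within DC101 tissue the odd array was the higher in 4 of 4 pairs for Vegfa, but in 2 of 4 for Kdr and for Esm1. With odd or even number as a covariate 6831 genes were called in place of 6753. No hair follicle gene was called among 22 (median -0.77), where DC101 arrays 19 and 20 read 9.76 and 9.96 and the control arrays 11.73 to 13.68. The part of hair follicle content in other results was not tested.

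The largest falls were in mammary gland genes. Of 16 mammary and milk genes 12 were lower and none higher than control, beside 22.6% of all genes (median -2.12, untreated -2.11). The casein gene Csn1s1 read 9.62 to 16.29 (median 14.14) in control and 4.99 to 8.08 (median 6.70) in DC101 tissue, at least 38.3-fold lower (-7.09, SE 0.60, adjusted p = 2e-15). Csn1s2a was at least 25.4-fold lower (adjusted p = 1.9e-18), Csn2 fell by 5.30 (SE 0.49, adjusted p = 5.5e-14) and Csn3 by 4.58 (SE 0.46, adjusted p = 1.1e-12). Control arrays varied far more than the others, with Csn2 at 8.70 to 16.25 against 6.41 to 8.66 in DC101 tissue. Genes of gland lumen epithelium fell too: the keratins Krt18 (-3.61, adjusted p = 8.9e-08), Krt8 (-3.22, adjusted p = 4.4e-10) and Krt19 (-2.96, adjusted p = 4.7e-06), the transcription factor Foxa1 (-3.03, adjusted p = 1.2e-06), the transcription co-regulator Cited1 (at least 3.20-fold lower, adjusted p = 2.5e-12) and the water channel Aqp5 (-3.58, adjusted p = 1.5e-08). None of these differed past the threshold between DC101 and untreated tissue (adjusted p from 0.17 to 0.99), and whether control and injected flanks held the same amount of gland was not tested.

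Mitochondrial genes fell as a block. All 29 respiratory chain genes tested were lower than control, beside 22.6% of all genes, with a median of -0.94 (untreated -1.27). The list level was 14.41 to 15.63 in control, 13.51 to 14.05 in DC101 and 13.34 to 13.53 in untreated arrays. The subunits of muscle and heart fell most: Cox7a1 by 2.20 (SE 0.49, adjusted p = 0.00014), Cox8b by 1.85 (SE 0.50, adjusted p = 0.0016) and Cox6a2 by 1.69 (SE 0.45, adjusted p = 0.0014). Compared with untreated tissue 3 of the 29 were higher, beside 4.66% of all genes, and none lower.

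Skeletal muscle genes were lower in 9 of 26 and higher in 1 with DC101, beside 22.6% of all genes lower, and lower in 23 of 26 in untreated tissue, beside 24.9% (medians -0.80 and -1.87). Ampd1, an enzyme of muscle energy metabolism, read 13.62 to 15.64 (median 14.55) in control, 10.93 to 12.73 (median 12.04) in DC101 and 9.82 to 11.72 (median 10.70) in untreated tissue and fell by 2.61 (SE 0.62, adjusted p = 4e-04). The slow myosin Myh7 fell by 2.57 (adjusted p = 0.0071) and the mitochondrial creatine kinase Ckmt2 by 1.99 (adjusted p = 6e-04), and Tnni1, a slow troponin, was the member that rose (1.98, adjusted p = 0.013). The test between DC101 and untreated tissue called 3 of the 26, all higher with DC101, beside 4.66% of all genes: Tcap (1.54, adjusted p = 0.0042), Myh1 (0.85, adjusted p = 0.03) and Mb (1.06, adjusted p = 0.046). The count of 9 was 21 when limma was fitted on the 3 compared groups alone and 17 with the RNA ratios as covariates. Genes of regenerating muscle rose in 5 of 11 and fell in 2, beside 23.3% of all genes higher: the embryonic and neonatal myosins Myh3 by 3.07 (SE 0.35, adjusted p = 6.6e-11) and Myh8 by 2.78 (SE 0.50, adjusted p = 4e-06), and the myoblast fusion protein Mymk, at least 1.52-fold (adjusted p = 1.2e-08). Outside these lists the channel subunit Lrrc38 was at least 2.56-fold lower (adjusted p = 1.5e-05), and Ppp1r1a, a phosphatase inhibitor, fell too (-3.02, adjusted p = 5.9e-05).

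Fat genes were lower in 15 of 21, beside 22.6% of all genes, and higher in 1 (median -1.10, untreated -1.89). Thrsp, a regulator of fat synthesis, read 12.53 to 15.57 (median 15.05) in control, 10.39 to 13.55 (median 11.90) in DC101 and 8.28 to 10.37 (median 8.98) in untreated tissue. DC101 and untreated arrays did not overlap: Thrsp fell by 2.62 against control (SE 0.59, adjusted p = 0.00019) and was 2.59 above untreated tissue (adjusted p = 0.0016). The insulin-regulated glucose transporter Slc2a4 fell by 2.12 (SE 0.36, adjusted p = 1.4e-06) and the fatty acid synthase Fasn by 1.92 (SE 0.38, adjusted p = 2.9e-05). Of the 21 genes 5 were higher than in untreated tissue, beside 4.66% of all genes, and none lower.

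Genes of low oxygen and glycolysis were lower in 10 of 23 and higher in 4, beside 22.6% and 23.3% of all genes (median -0.36). The glucose kinase Hk2 fell by 1.40 (SE 0.23, adjusted p = 5.4e-07) and the pyruvate dehydrogenase kinase Pdk1 by 1.47 (SE 0.18, adjusted p = 2.2e-10), while Adm rose by 1.91 (SE 0.24, adjusted p = 1.2e-09). The other Pdk1 probe sets fell less or missed the threshold (-0.58, adjusted p = 0.048; -0.54, adjusted p = 0.03; -0.06, adjusted p = 0.9). Hk2 is also a muscle gene. The 10 p53 and DNA damage genes, 3 higher and 2 lower, were called about as often as all genes (23.3% and 22.6%), with Pmaip1, a cell death protein, up by 1.46 (adjusted p = 1.6e-08), the cell cycle inhibitor Cdkn1a up by 0.89 (adjusted p = 0.00029) and the cyclin Ccng1 down (-1.48, adjusted p = 4.9e-06). Of 10 Schwann cell genes only the transcription factor Sox10 passed against control (-0.55, adjusted p = 0.0048), where 22.6% of all genes were lower. Against untreated tissue 4 of the 10 were higher, beside 4.66% of all genes, and none lower.

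**Figure D3:**
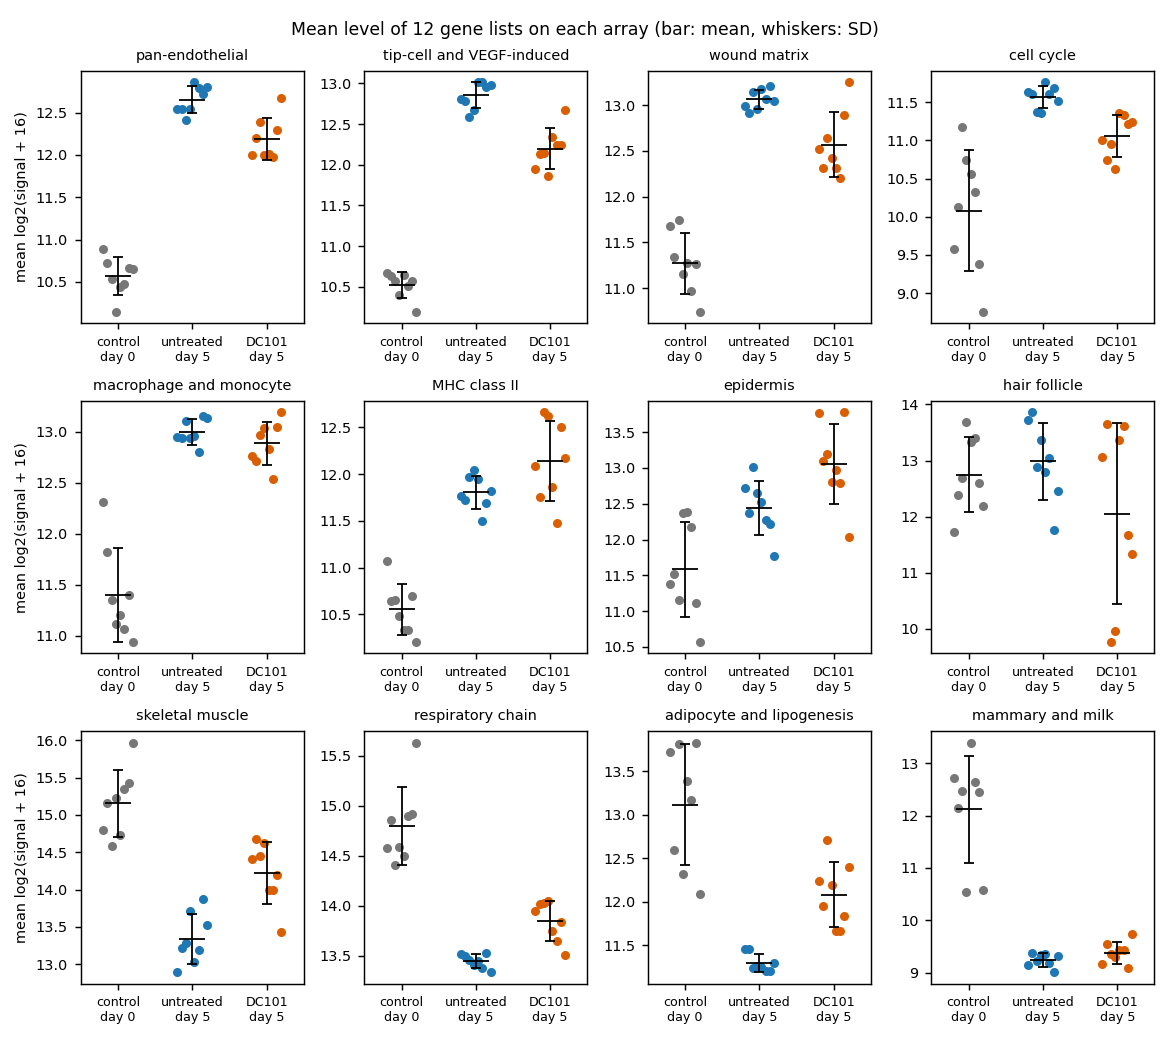
Mean log2(signal + 16) of the tested members of 12 gene lists (y axis) on each of the 8 control, 8 untreated and 8 DC101 arrays; points are arrays, the bar is the mean and the whiskers the SD. Pan-endothelial, respiratory chain and mammary levels do not overlap between control and DC101 arrays, while cell cycle and hair follicle levels do.

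Glucocorticoid and stress genes separated DC101 from untreated tissue. Of 15 tested 9 were higher and 1 lower than control, beside 23.3% of all genes higher (median 0.83), and 11 were higher and none lower than in untreated tissue, beside 4.66% of all genes (median 1.15). The untreated arrays had a median of -0.20 against control. The list level was 13.04 to 13.70 across DC101 arrays, above every control array at 12.42 to 12.92 and every untreated array at 12.13 to 12.39. Per1, a clock gene that glucocorticoids induce, read 10.14 to 10.88 (median 10.36) in control, 12.17 to 12.65 (median 12.30) in DC101 and 10.48 to 11.35 (median 10.82) in untreated tissue. DC101 arrays overlapped neither other group, with a rise of 1.91 (SE 0.14, adjusted p = 1.3e-17) and 1.53 above untreated tissue (adjusted p = 1.1e-12). Ddit4, an inhibitor of mTOR, rose by 1.86 (SE 0.19, adjusted p = 7.3e-13) and the kinase Sgk1 by 1.21 (SE 0.14, adjusted p = 2.6e-10), with 1.15 (adjusted p = 6.7e-06) and 0.55 (adjusted p = 0.0073) above untreated tissue. The glucocorticoid response element, searched as GNACANNNTGTNC on both strands in the 250 bases before the start, stood in 2 of the 13 members with a promoter entry (15.4%), Sgk1 and Mt1, and in 0.348% of tested genes.

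Klf15, a glucocorticoid-induced transcription factor, had the largest rise of DC101 over untreated tissue among the named genes. It read 10.12 to 11.41 (median 10.72) in control, 9.20 to 10.56 (median 9.81) in DC101 and 4.99 to 6.88 (median 6.47) in untreated tissue. Every DC101 array stood above every untreated array by 3.63 on average (SE 0.34, adjusted p = 1.4e-12), and DC101 was slightly under control (fell by 0.84, SE 0.34, adjusted p = 0.036). The latter call was lost in 6 of 24 fits that each left out 1 array, those without control array 95 or either of the last 2, or DC101 array 17, 21 or 22, with an adjusted p of up to 0.082 (-0.74). It was also lost without DC101 arrays 21 and 22 (-0.64, adjusted p = 0.16). Of 16 clock genes 5 were lower and 2 higher than control, beside 22.6% and 23.3% of all genes. Against untreated tissue 6 were higher, beside 4.66% of all genes, and none lower. The clock output Dbp fell by 1.18 against control (SE 0.21, adjusted p = 2.8e-06) and Per3 by 1.03 (SE 0.15, adjusted p = 2.1e-08). Dbp stood above untreated tissue by 0.65 (adjusted p = 0.027) and the repressor Nr1d1 by 1.48 (adjusted p = 7e-07). The hour of harvest is not given in the labels.

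Other large differences between DC101 and untreated tissue were in genes of mixed function. The methyltransferase Inmt read 11.36 to 13.02 (median 12.14) in control, 9.61 to 11.87 (median 10.86) in DC101 and 4.63 to 9.47 (median 8.42) in untreated tissue, 2.82 above untreated (adjusted p = 2.9e-06) and below control (-1.55, adjusted p = 0.0025). Apol8, an apolipoprotein L gene, was 2.54 above untreated tissue (adjusted p = 0.00015) and at least 1.55-fold above control, and Alox12b was 2.82 above untreated tissue (adjusted p = 0.031). All 8 untreated arrays were below the filter level for Apol8 and for Alox12b, so their differences from untreated tissue are uncertain in size. Lower with DC101 were the peptide Nts (-2.29, adjusted p = 1e-04), the retroviral restriction gene Trim5 (-2.20, adjusted p = 0.033), the antimicrobial peptide Camp (-2.07, adjusted p = 0.00049), the lipid transporter Abca4 (-2.05, adjusted p = 0.029) and the cilium gene Cfap69 (-1.97, adjusted p = 8e-05). All 8 DC101 arrays were below the filter level for Trim5, Camp and Abca4, and 7 for Cfap69, so the sizes of these falls are uncertain. Untreated means were close to that level for Camp (8.30) and Abca4 (8.71) and under it for Trim5 (7.65). Nts rose against control all the same (2.69, SE 0.43, adjusted p = 3.7e-07). All 8 of its control arrays and 4 of its DC101 arrays were below the filter level, so the size of that rise is uncertain. The other 4 differed from control by -1.30 (Trim5, adjusted p = 0.14), -0.03 (Camp, adjusted p = 0.96), 0.89 (Abca4, adjusted p = 0.28) and 0.81 (Cfap69, adjusted p = 0.06), all short of the threshold. Cfap69 passed without DC101 array 20 (0.96, adjusted p = 0.03) or control array 96 (0.93, adjusted p = 0.038), 97 (0.90, adjusted p = 0.044), 98 (0.92, adjusted p = 0.039) or 100 (0.98, adjusted p = 0.026). Neurotensin, encoded by Nts, acts on gut and vessels.

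**Figure D4:**
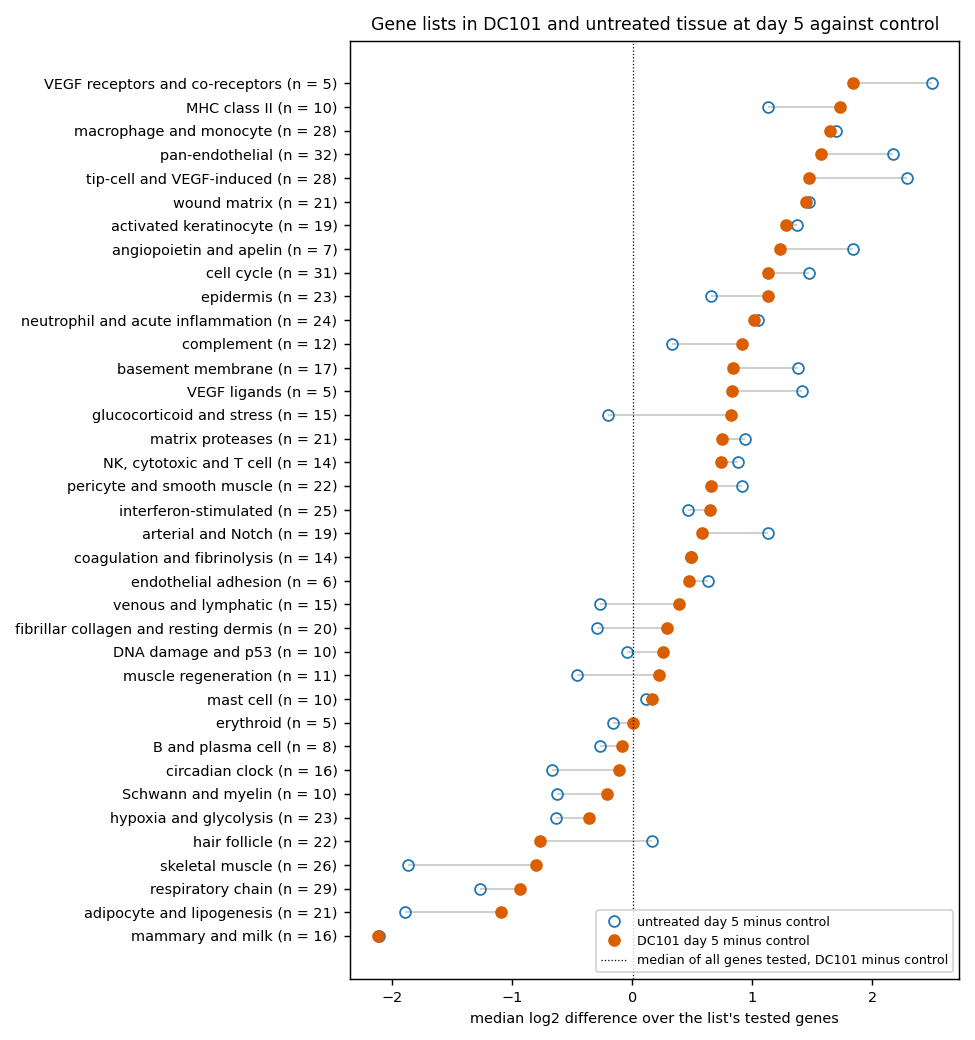
Median log2 difference over the tested genes of each of 37 lists (n beside the name), with DC101 minus control as filled and untreated minus control as open circles; the dotted line is the median of all tested genes for DC101 minus control. The lists of VEGF receptors, endothelium and macrophages lie to the right for both groups, mammary genes to the left for both, and glucocorticoid genes on the right for DC101 alone. Both sets share the control arrays.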

How the data were processed

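Flank tissue RNA was measured on Affymetrix mouse expression arrays. The deposited values are MAS5 signal intensity on a linear scale, computed by the authors in GCOS 1.3 as the submitters' processing notes have it. Array medians run from 454.85 to 582.58. Array number limits the precision.

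Of 45101 probe sets 34958 had 1 gene symbol in the platform annotation, 932 several and 9211 none listed, and 34754 matched RefSeq by Entrez ID. Signals were analysed as log2(signal + 16). Probe sets above the 40th percentile (signal 331) on at least 6 arrays were kept, and each gene took its brightest probe set. limma 3.58.1 (R 4.3.3) fitted 10 group means over all 78 arrays with an intensity trend; tests were two-sided with Benjamini-Hochberg adjustment, and the fit was tested on simulated data. A fold is given as a lower bound, against the filter level, for genes whose dimmer group was under that level throughout and whose brighter group had a mean above it.

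The 37 gene lists (640 of 713 entries tested) and the comparison were chosen with earlier results of these data known. Named genes are the 12 largest rises and falls against control, the 3 largest changes in each list, all VEGF ligand, receptor and angiopoietin genes, and the 5 largest rises and falls against untreated tissue, passing over clone names; a few others were named after their values were seen. Alternatives covered the pseudocount, filter, normalization, probe sets, array weights, groups fitted, RNA ratios, adjacent arrays and single arrays.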

Additional observations from a re-analysis of the deposited data

Results flagged for a closer look

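In 264 groups of 8 arrays, over 51 genes (the largest changes, the VEGF and angiopoietin genes) and 37 list levels, 10 held an array far from the others by Dixon's criterion (3.79%, where chance flags about 1 in 20). In control tissue these were the last array by running number for Alox12b (5.18), for the mast cell list (8.61) and for the respiratory chain list (15.63), array 96 for Camp (5.62), array 98 for Kdr (10.06, the lowest of its group), and array 97 for Mfap4 (8.43) and Vegfc (10.80). In untreated tissue they were array 3 for Alox12b (6.67) and array 5 for Csn1s2a (5.40), and in DC101 tissue array 24 for Krt8 (10.84).

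Among the 51 genes looked at in this way, for 17 the DC101 and untreated differences from control were themselves different by limma's test of DC101 against untreated tissue. The gap, in log2, was positive for Klf15 (3.63), Inmt (2.82), Alox12b (2.82), Thrsp (2.59), Apol8 (2.54), Vegfd (0.66) and Angpt1 (0.57). It was negative for Nts (-2.29), Trim5 (-2.20), Camp (-2.07), Abca4 (-2.05), Cfap69 (-1.97), Pgf (-1.60), Flt1 (-1.22), Angpt2 (-0.94), Tmem255a (-0.90) and Apln (-0.61). The first 5 of the positive and of the negative genes were chosen for the size of this gap, so for them it is a description. All 8 DC101 arrays for Trim5, Camp and Abca4, and all 8 untreated arrays for Klf15, Alox12b and Apol8, were below the filter level.

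Among 5818 probe sets that name no single gene, 1000 were higher and 793 lower with DC101 than in control tissue (limma, adjusted p under 0.05). Both are smaller shares than the 23.3% higher and 22.6% lower among all genes tested.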

How the results depend on the processing

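DC101 against control gave between 5893 (adjacent arrays averaged) and 7189 (array weights) called genes, beside 6753. DC101 against untreated, beside 1732 calls (686 higher, 1046 lower), gave 4577 (2179 and 2398) with array weights, 823 (316 and 507) with adjacent arrays averaged, and 914 (252 and 662) without DC101 arrays 19 and 20. The higher count was 1170 with only the 3 groups compared in the fit, 453 with the RNA ratios and 1126 without arrays 21 and 22, and 419 to 877 leaving out single arrays. The exclusions of 2 arrays, and odd or even number as a covariate, were added after seeing the data. Skeletal muscle members lower than control, 9 in all, became 14 with array weights, 21 with the 3 groups and 17 with the RNA ratios. Dermis members higher, 7, became 11 with array weights and 11 without arrays 21 and 22, and cytotoxic members higher, 8, became 4 under a filter at the 60th percentile. Schwann members lower, 1, became 2 with the 3 groups, the RNA ratios or without arrays 19 and 20, and ranged from 1 to 2 leaving out single arrays; erythroid members lower, 2, became 1 under the 60th percentile filter, probe set means, the RNA ratios, averaged pairs, and without arrays 21 and 22, and ranged from 0 to 2. Other list counts stayed within 1.5 times. The cause of these shifts was not tested.

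Camp changed sign with a pseudocount of 64 (0.051), without arrays 19 and 20 (0.20), and, leaving out single arrays, without the last control array (0.012) or DC101 arrays 18, 19 or 23 (0.11, 0.17 and 0.03). Tek did so without arrays 21 and 22 (0.18) and without either (0.0082 and 0.0023). Of 79 other probe sets of the named genes 68 gave the same call, 8 missed the threshold and 3 read the other way: Vegfa (-1.75, past the threshold), Nrp2 (-0.19) and Thrsp (0.14). With no filter Csn1s2a took another probe set (-0.42, adjusted p = 0.14). Angptl4, Klf1, Klf15, Nrp2, Tfrc, Defb3, Pi16 and Alas2 lost their call under at least 1 alternative; where Angptl4 lost it, its difference was 0.46 to 0.67. No paired analysis was possible because the running numbers in the titles are not shared between groups. Arrays below the filter level limit the folds of dim genes to lower bounds.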

Other observations

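Some arrays with adjacent running numbers resembled each other more than other arrays of their group did. The correlation of their residuals over genes was 0.20, 0.42, 0.63 and -0.01 for the 4 DC101 pairs, where the other 24 pairs had a median of -0.28 and a highest value of 0.19. In control tissue the pairs gave 0.22, 0.09, 0.30 and 0.10 (median of the other 24 pairs -0.23, highest 0.18), and in untreated tissue 0.30, 0.08, -0.05 and 0.29 (-0.17, highest 0.0060). The adjacent pairs at -0.01, 0.09, 0.10 and -0.05 lay within the range of the other pairs of their group. The labels do not say what adjacent numbers share.

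The alternation between odd and even numbers touched epidermal and Vegfa levels in DC101 tissue, where Krt10 averaged 16.16 on odd and 15.18 on even arrays and Vegfa 14.13 and 13.33. Csn2, Cd93 and Klf15 were higher on the odd array in 17, 19 and 15 of 39 pairs.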
